A study of Mus musculus with 21 samples.

Results

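The transcriptomes of CD45+ erythroid cells from neonatal mice were compared with those of myeloid-derived suppressor cells (MDSC) from tumor-bearing mice across all genes of the deposited table. The comparison used 6 of the 21 libraries in the series, 3 for each group, chosen by their labels alone. All mice were C57BL/6 and all cells came from the spleen. The neonatal cells had been sorted as CD45+Ter119+CD71+ and the MDSC as CD11b+Gr1+. Age, tumor status and the sorted lineage all differed between the groups, so an effect of one cannot be told apart from an effect of the others. The labels used here give no age in days, sex, tumor line or tumor stage. Nor do they state that the libraries of a group are from different animals, so the p-values measure the spread between libraries, which may be technical.

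Ter119 is a surface antigen of erythroid cells, and CD71 is the transferrin receptor through which erythroid precursors take up the iron they need for haem. CD45 is a phosphatase of leukocytes that is lost as erythroid cells mature, so that CD45+ cells of the erythroid sort are taken to be its early stages. In newborn mice the spleen is a site of blood formation, and CD45+CD71+ erythroid cells at that age are known to dampen immune responses. MDSC are immature granulocytes and monocytes that accumulate in the spleen of mice with tumors and suppress T cells. CD11b, encoded by Itgam, marks myeloid cells, and Gr1 is a shared epitope of the Ly6g and Ly6c proteins.

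The deposited log2 values per gene, whose underlying scale is not given in the sources used here, were unlogged with a blank read as 0. Differences are given as neonatal minus MDSC on log2(value + 1), which understates the change of genes with low values, and were tested with limma over all genes whose value was 1 or more in 3 or more of the 6 libraries. The summed values lay between 254547 and 265984 in the neonatal libraries and between 272983 and 291444 in the MDSC libraries. Between 13780 and 13952 genes had a value in a neonatal library and between 13094 and 13257 in an MDSC library. Pearson correlations of log2(value + 1) between libraries ran from 0.890 to 0.945 among neonatal libraries, from 0.937 to 0.956 among MDSC libraries and from 0.768 to 0.819 between the groups. Although the extraction protocol mentions retinas, the tissue label of each library is spleen, and photoreceptor genes did not exceed 0.789 (Sag) in these libraries.

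Of 10222 genes tested, 3058 passed an adjusted p of 0.05, which is 29.9%. Of these, 2135 were higher in the neonatal cells (20.9% of the genes tested) and 923 were lower (9.03%). The difference was at least 2-fold for 1439 of the higher and 617 of the lower genes, and at least 16-fold for 48 and 7. The median difference of all tested genes was 0.22. The split by direction depended on the scaling between libraries. With median-ratio scaling 1398 genes were higher and 1507 lower and the median of all genes moved to −0.07. With quantile normalization 1340 were higher and 1382 lower. Scaling to the sum without haemoglobin genes gave 2985 higher and 694 lower and a median of 0.40. Without MDSC library 2 the test called 2016 genes. In bulk libraries such as these, fewer cells of a type cannot be told apart from less RNA per cell. A total of 583 tested genes reached the minimum value only through the neonatal libraries and 71 only through the MDSC libraries.

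**Figure D1:**
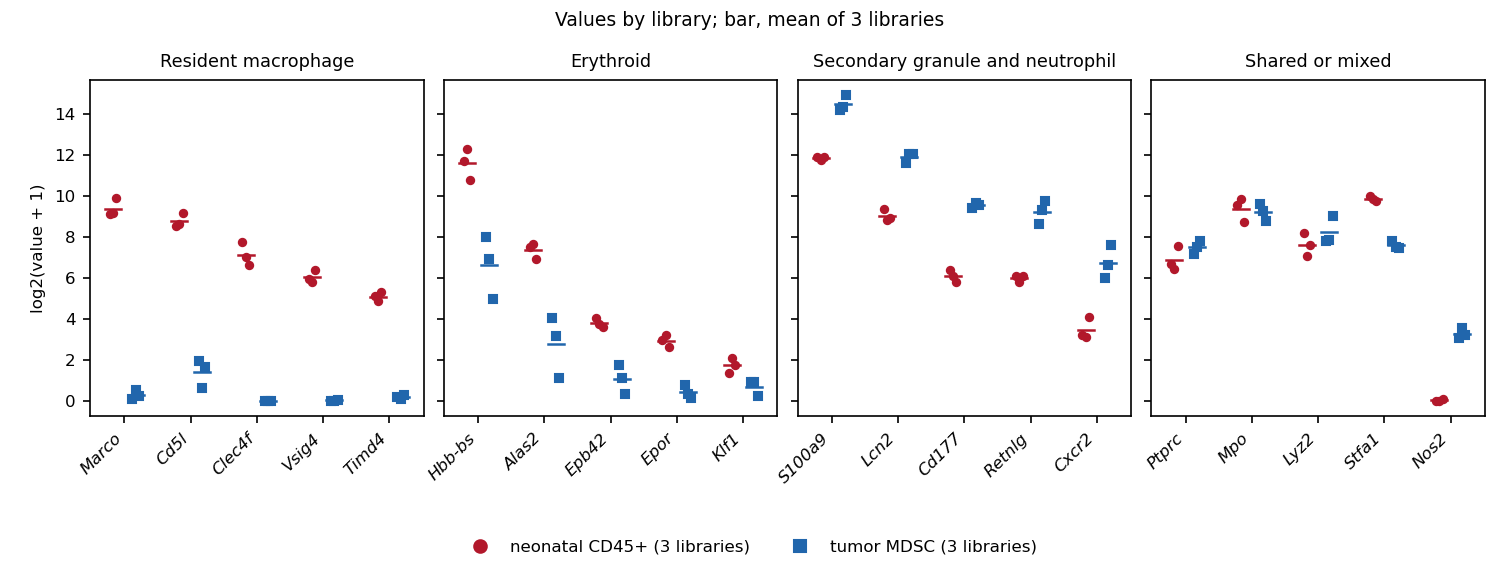
Values of 20 genes on log2(value + 1) in each neonatal CD45+ library (red circles) and each tumor MDSC library (blue squares), with a bar at the mean of 3 libraries. Resident macrophage and erythroid genes lie higher in the neonatal libraries, neutrophil genes lie higher in MDSC, and Ptprc, Mpo and Lyz2 overlap between the groups.

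The antigens of the 2 sorts separated the groups only in part. Ptprc, which encodes CD45, had values of 101, 86.7 and 188 in the 3 neonatal libraries and 143, 185 and 222 in the 3 MDSC libraries. The ranges overlapped and a log2 difference of −0.61 (SE 0.31, adjusted p = 0.18) did not pass. Tfrc, which encodes CD71, had values of 40.6, 66.1 and 65.2 in neonatal cells and 54.3, 36.0 and 47.5 in MDSC. These also overlapped, with a log2 difference of 0.30 (SE 0.25, adjusted p = 0.41). Itgam was lower in the neonatal cells, at 106, 66.6 and 54.1 against 197, 269.6 and 252, with a log2 difference of −1.69 (SE 0.27, adjusted p = 0.0024), but it was not near 0 in any neonatal library. Ly6g, the granulocyte part of the Gr1 epitope, stood at 2.51, 3.77 and 3.77 in neonatal cells and 8.33, 7.81 and 37.8 in MDSC, with a log2 difference of −1.77 (SE 0.54, adjusted p = 0.042). MDSC library 3 had the highest Ly6g by far, and the call ended without neonatal library 1 (adjusted p = 0.11), 2 (0.096) or 3 (0.09), and in the fits of 12 (0.14) and 21 libraries (0.057). Ly6c1 and Ly6c2 were lower by −1.18 and −1.07 on the log2 scale. The Ly6c1 call ended without neonatal library 1 (adjusted p = 0.058) or MDSC library 3 (0.072).

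Haemoglobin genes were higher in the neonatal cells. For each list of genes below, the number of members that passed with limma is given in either direction. Wherever that number is 0 in the comparison of neonatal cells with MDSC, the number at an unadjusted p under 0.05 was 0 as well. A member that reached the minimum value only through the libraries of 1 group had to differ. Where no number of such members is given for a group, a list held 3 or fewer of them. Members are named mostly for a small adjusted p or a high mean. A lack of overlap among them follows in part from that choice, and its share over all tested genes is not given here. All 4 adult globin genes in the table were called, with a median difference of 5.02 beside 0.22 for all genes. Hbb-bs, an adult beta chain of haemoglobin, had values of 3390.2, 5068 and 1755 in neonatal cells and 257, 121 and 31.0 in MDSC, with a log2 difference of 4.95 (SE 0.76, adjusted p = 0.0035). Hba-a1, an alpha chain, stood at 6650.0, 9828 and 2028 and 458, 206 and 14.8, with a log2 difference of 5.48 (SE 1.40, adjusted p = 0.037). In each gene neonatal library 3 was the lowest of its group and MDSC library 3 the lowest of all, and the groups did not overlap. Leaving out neonatal library 1, 2 or 3 or MDSC library 2 left 1, 1, 2 and 1 of the 4 genes called, and Hbb-bs kept its call each time. The alpha globin copies are near identical, as are the beta copies, so reads may have been split between them. Globins took 5.80% ± 3.28 (SD, n = 3) of the summed values in neonatal cells, with a range of 2.42% to 8.96%, and 0.237% ± 0.233 (SD, n = 3) in MDSC, with a range of 0.0264% to 0.486%. In the CD45- erythroid libraries of neonates globins took between 27.5% and 39.2%, above every neonatal CD45+ library. Embryonic globin genes were not tested because their values were too low. The highest of them in a neonatal library was 0.628, for Hba-x, and all 4 were listed at 0 in every MDSC library.

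Most enzymes that build haem were higher in the neonatal cells. Of 14 tested genes of haem synthesis, 8 were higher and 1 was lower, with a median of 1.17. Alas2, the erythroid enzyme of the first and limiting step, had values of 182, 201 and 121 in neonatal cells and 15.6, 8.08 and 1.14 in MDSC. Every neonatal library was above every MDSC library, with a log2 difference of 4.59 (SE 0.70, adjusted p = 0.0032). Alad and Fech, enzymes of later steps, were higher by 2.23 and 2.43 on the log2 scale. Alas1, the housekeeping form of the first enzyme, was the member that was lower, at 19.9, 20.4 and 43.3 against 143, 154 and 116, with a log2 difference of −2.35 (SE 0.30, adjusted p = 0.001). The isoforms of the same step thus lay on opposite sides, and neither overlapped between the groups. Urod had values of 33.5, 40.3 and 17.0 and 17.5, 14.1 and 10.9 and did not pass. Of 13 tested genes of iron uptake and storage, 6 were higher and 0 lower (46.2% passed, beside 29.9% of all genes), with a median of 1.07. Among them Slc40a1, the iron exporter ferroportin, was at 128, 113 and 258 against 49.5, 53.3 and 45.8, and Hmox1, which breaks haem down, was at 279, 236 and 635 against 32.3, 28.5 and 25.7. Both are also members of the resident macrophage list described further on.

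The red cell membrane set, which holds the band 3 anion exchanger, the spectrin skeleton and the blood group proteins, had 16 of 18 tested members higher and 0 lower, with a median of 2.68. A total of 2 of these members reached the minimum value only through the neonatal libraries. Epb42, a protein of the membrane skeleton, had values of 15.6, 12.4 and 11.0 in neonatal cells and 2.41, 1.18 and 0.249 in MDSC, with a log2 difference of 2.72 (SE 0.36, adjusted p = 0.0012). Slc4a1, band 3, was at 179, 284 and 62.8 against 24.9, 11.7 and 1.70, with a log2 difference of 3.95 (SE 0.92, adjusted p = 0.021). In both genes no neonatal library fell to the level of an MDSC library. The Slc4a1 call ended without neonatal library 1 (adjusted p = 0.066), neonatal library 2 (0.057) or MDSC library 2 (0.077). Slc2a1, a glucose transporter, and Cldn13 overlapped between the groups and did not pass. Of 21 tested genes of late erythroid maturation, 15 were higher and 0 lower, with a median of 1.76. In the fit of 12 libraries 9 of them were higher. They included Car2, the carbonic anhydrase of red cells, at 84.9, 119.7 and 52.0 against 20.1, 7.44 and 1.77, and Bnip3l, which directs the removal of mitochondria, at 56.4, 52.5 and 41.2 against 17.4, 21.4 and 28.5. The Car2 call ended without MDSC library 2 (adjusted p = 0.051), and that of Bnip3l under median-ratio scaling (0.059).

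Among the regulators of the erythroid lineage a smaller number was called. Of 18 tested erythroid transcription factors and cofactors, 6 were higher and 1 was lower, which is 38.9% beside 29.9% of all genes, with a median of 0.58. Zfpm1, the GATA cofactor FOG1, was at 16.2, 17.8 and 7.72 in neonatal cells and 2.82, 0.909 and 0.506 in MDSC, with a log2 difference of 2.67 (SE 0.42, adjusted p = 0.0025). Sox6, which silences embryonic globin, was higher by 2.80. Gata1, the master regulator of erythroid genes, had values of 5.76, 5.70 and 1.64 and 1.43, 0.747 and 0.137, with a log2 difference of 1.54 (SE 0.43, adjusted p = 0.029). Klf1, an activator of beta globin, had values of 1.56, 3.24 and 2.41 and 0.899, 0.882 and 0.195, with a log2 difference of 1.04 (SE 0.28, adjusted p = 0.025). The neonatal ranges of both lay above those of MDSC by a small margin. The call of Gata1 ended without neonatal library 1 (adjusted p = 0.093), neonatal library 2 (0.091), MDSC library 2 (0.073) or MDSC library 3 (0.098), under quantile normalization (0.12) and in the fit of 12 libraries (0.068). That of Klf1 ended without neonatal library 2 (0.073), without MDSC library 3 (0.079), without the libraries numbered 3 (0.089), in the fit of 12 libraries (0.1) and under quantile normalization, where the difference was 0.53 (0.18). Nfe2, a factor of erythroid and megakaryocytic cells, was lower, at 12.5, 5.71 and 6.17 against 21.9, 21.2 and 23.6, with a log2 difference of −1.42 (SE 0.28, adjusted p = 0.0065). Its call ended in the fits of 12 (adjusted p = 0.067) and 21 libraries (0.057).

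Epor, the erythropoietin receptor, was at 6.72, 8.45 and 5.16 in neonatal cells and 0.701, 0.248 and 0.103 in MDSC, with a log2 difference of 2.53 (SE 0.27, adjusted p = 4.0e-04). Of 13 tested genes of erythropoietin signalling 5 were higher and 0 lower (38.5% passed, beside 29.9% of all genes), with a median of 0.36, and 3 of the 13 reached the minimum only through the neonatal libraries. Socs2, a feedback inhibitor of cytokine signalling, was at 6.40, 4.81 and 4.11 against 0.300, 0.0963 and 0.167. Of 18 tested genes of early progenitors, 8 were higher and 2 lower (55.6% passed, beside 29.9% of all genes), with a median of 0.40. Kit, the receptor of stem cell factor, had values of 15.8, 18.5 and 27.9 and 5.75, 3.82 and 4.80, with a log2 difference of 1.88 (SE 0.26, adjusted p = 0.0014). Cd34, a surface antigen of progenitors, was at 15.6, 15.9 and 11.1 against 1.67, 1.89 and 0.222, with a log2 difference of 2.83 (SE 0.35, adjusted p = 8.7e-04). Gata2, a factor of stem cells and of mast cells, was at 4.64, 7.71 and 9.90 against 0.596, 0.281 and 0.0833. Kit and Gata2 are also expressed by mast cells, whose list is described further on. The count of higher progenitor genes was 4 without neonatal library 1, MDSC library 2 or MDSC library 3.

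The 250 bases before the start of 4 genes are shown because these genes stood on opposite sides of the comparison and carry a motif of a factor known for that lineage. They come from RefSeq on build GRCm38.p6, which is not the build of the deposited table, are written 5′ to 3′ on the strand of the gene in lower case, and have the motif in capitals. In Alas2 (chrX:150547167-150547416, plus strand) and Epb42 (chr2:121036878-121037127, minus strand) the capitals mark AGATAA, the core bound by GATA factors, here on the opposite strand. In Lcn2 (chr2:32387740-32387989, minus strand) and Ngp (chr9:110419558-110419807, plus strand) they mark TTGCNNAA, a core bound by C/EBP factors, with N for any base. Ngp holds 2 matches, and the later one is on the opposite strand.
Alas2: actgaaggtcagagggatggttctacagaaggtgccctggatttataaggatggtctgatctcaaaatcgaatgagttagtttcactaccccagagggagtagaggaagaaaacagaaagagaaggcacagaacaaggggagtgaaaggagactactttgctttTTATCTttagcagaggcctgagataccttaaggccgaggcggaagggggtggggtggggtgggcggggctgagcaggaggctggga
Epb42: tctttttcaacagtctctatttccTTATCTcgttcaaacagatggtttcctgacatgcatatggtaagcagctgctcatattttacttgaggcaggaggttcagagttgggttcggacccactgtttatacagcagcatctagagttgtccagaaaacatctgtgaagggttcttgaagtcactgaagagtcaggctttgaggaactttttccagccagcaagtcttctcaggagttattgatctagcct
Lcn2: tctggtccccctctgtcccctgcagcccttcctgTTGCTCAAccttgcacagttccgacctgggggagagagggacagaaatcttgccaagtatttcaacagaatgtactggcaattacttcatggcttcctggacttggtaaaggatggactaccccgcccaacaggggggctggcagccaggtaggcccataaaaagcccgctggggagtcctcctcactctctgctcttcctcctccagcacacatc
Ngp: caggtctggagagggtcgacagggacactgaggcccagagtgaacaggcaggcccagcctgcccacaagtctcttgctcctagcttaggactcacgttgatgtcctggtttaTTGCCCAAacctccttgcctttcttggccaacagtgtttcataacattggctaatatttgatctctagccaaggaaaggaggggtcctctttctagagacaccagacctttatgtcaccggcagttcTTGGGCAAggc

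Among 49 erythroid genes higher in neonatal cells (globins, haem synthesis, red cell membrane, late maturation and transcription factors), 36 had a promoter in the table. Of these, 7 (19.4%) held AGATAA on either strand, as did 10.3% of all 27025 promoters of the same length. CACCC, the core bound by Krueppel-like factors such as Klf1, was in 28 (77.8%) of them and in 51.3% of all. TTGCNNAA was in 1 (2.78%) and in 9.55% of all. Among 40 granule and neutrophil genes lower in neonatal cells, 32 had a promoter and 12 of these (37.5%) held TTGCNNAA, 5 (15.6%) AGATAA and 19 (59.4%) CACCC. Of 22 resident macrophage genes, 15 had a promoter, and 12 held CACCC and none of the 15 held either of the other motifs in this window. Matches of different motifs may overlap and were counted separately. A match is a description of the letters and not a bound site.

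Neutrophil genes made up the other side of the comparison. Of 17 tested genes of secondary and tertiary granules, 12 were lower in the neonatal cells and 0 higher, with a median of −2.16. Lcn2, an iron-binding protein of these granules, had values of 662, 463 and 487 in neonatal cells and 3142, 4321 and 4327 in MDSC, with a log2 difference of −2.87 (SE 0.22, adjusted p = 9.7e-05). Ngp, neutrophilic granule protein, was at 1162, 613 and 649.8 against 2882, 9999 and 3900.4, with a log2 difference of −2.64 (SE 0.47, adjusted p = 0.0049). The Ngp call ended without the libraries numbered 3 (adjusted p = 0.058). Cd177, a neutrophil surface protein, was at 84.2, 68.5 and 56.0 against 692, 805 and 772, with a log2 difference of −3.44 (SE 0.20, adjusted p = 4.1e-05). None of these overlapped between the groups. Ltf, lactoferrin, was at 598, 461 and 464 against 1274, 1825 and 2662 and differed by −1.86 on the log2 scale. Camp, the antimicrobial cathelicidin, was at 1101, 809.6 and 639 against 1855, 1331 and 2141, and its call ended without neonatal library 2 (adjusted p = 0.059), MDSC library 1 (0.051) or MDSC library 3 (0.051). Olfm4 and the lysozyme gene Lyz2 did not pass. Olfm4 was at 162, 106 and 156 and 122, 112 and 145, and Lyz2 at 292, 133 and 194 and 224, 234 and 527. Secondary granule genes took between 1.28% and 2.02% of the summed values in neonatal libraries and between 5.44% and 8.22% in MDSC libraries. In the CD45- erythroid libraries of neonates they took between 0.0118% and 0.0140%, below every neonatal CD45+ library.

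Of 32 tested genes of mature neutrophils, 22 were lower and 3 higher, with a median of −1.80. S100a9, a subunit of calprotectin, had values of 3925, 3527 and 3897 in neonatal cells and 18753, 20836 and 31552 in MDSC, with a log2 difference of −2.61 (SE 0.23, adjusted p = 1.7e-04). Its partner S100a8 was at 3276, 2840.2 and 2667 against 15127, 17354 and 23107. The ranges of both lay far apart, but their calls ended under quantile normalization (adjusted p = 0.21 and 0.1). Cxcr2, the receptor through which neutrophils follow chemokines, was at 8.26, 7.68 and 15.9 against 63.0, 99.1 and 194, with a log2 difference of −3.28 (SE 0.42, adjusted p = 0.0012). Retnlg, a resistin-like protein, was at 67.4, 56.0 and 67.6 against 404, 633 and 867, and Mmp9, a gelatinase, at 45.6, 38.2 and 40.7 against 252, 443 and 298. The 3 members that were higher all encode stefin A proteins, inhibitors of cysteine proteases. Stfa1 was at 1015, 927 and 856 against 226, 180.1 and 175, with a log2 difference of 2.27 (SE 0.18, adjusted p = 1.2e-04), and BC100530 at 1633, 1333 and 1216 against 868, 721 and 399, with a log2 difference of 1.13 (SE 0.29, adjusted p = 0.021). The call of BC100530 ended without neonatal library 1 (adjusted p = 0.077) or 2 (0.059) and under median-ratio scaling (0.056). In the fit of 12 libraries neither Stfa1 (0.061) nor BC100530 (0.37) passed. Without neonatal library 1 the number of higher members was 1. Stfa2 and Stfa2l1 did not pass. The stefin A genes are close copies, so reads may have been split among them.

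Primary granules are made earlier in granulocyte development. Of 13 tested genes of the primary granule list, 6 were lower and 1 was higher, with a median of −0.53. Of the list 53.8% passed, beside 29.9% of all genes. In the fit of 12 libraries 2 were lower. Mpo, myeloperoxidase, had values of 761, 933 and 421 in neonatal cells and 783, 626 and 445 in MDSC, and Prtn3, proteinase 3, had values of 229.8, 330.1 and 153 and 395, 512 and 173. Both overlapped between the groups and did not pass. Ctsc, the protease that activates granule serine proteases, was the member that was higher, at 171, 89.3 and 157 against 33.4, 31.7 and 36.2, with a log2 difference of 1.96 (SE 0.26, adjusted p = 0.0011). The list also holds genes whose products are not particular to primary granules. Among these Hp, haptoglobin, was lower, at 42.9, 36.5 and 41.0 against 209, 228 and 270.0, with a log2 difference of −2.52 (SE 0.18, adjusted p = 7.3e-05). Of 8 tested genes of the NADPH oxidase, the enzyme of the respiratory burst, 5 were lower and 0 higher, with a median of −1.42. Cybb, its membrane core, was at 140.2, 101 and 163 against 373, 357 and 539.8, with a log2 difference of −1.65 (SE 0.25, adjusted p = 0.0019). Ncf1, a cytosolic subunit, was at 56.4, 25.6 and 66.5 against 245, 281 and 578. Cyba did not pass, and the call of Rac2 ended without neonatal library 2 (adjusted p = 0.057) or 3 (0.056) and without MDSC library 1 (0.078) or 2 (0.11).

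**Figure D2:**
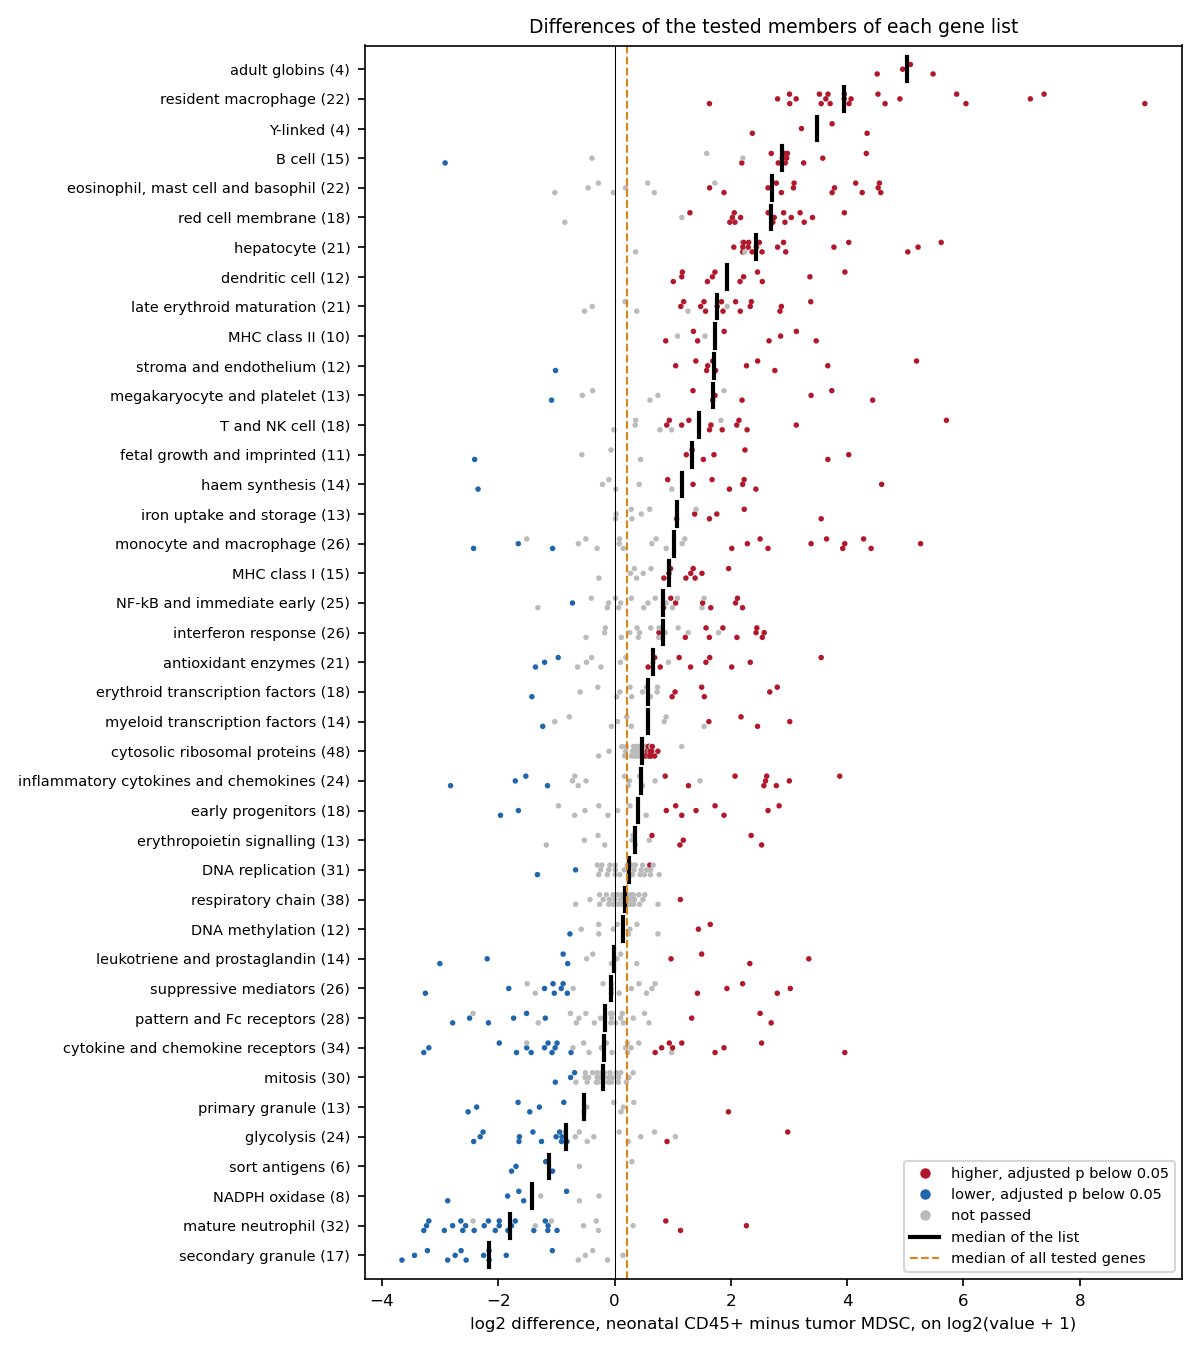
Differences of the tested members of 41 gene lists on log2(value + 1), neonatal CD45+ minus tumor MDSC, 1 point per gene, red or blue where the adjusted p was below 0.05. Black bars are list medians, from 5.02 for adult globins to −2.16 for secondary granules, and the dashed line is the median of all tested genes at 0.22.

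Genes tied to immune suppression were split between the groups. Of 26 tested, 5 were higher in neonatal cells and 8 lower (50.0% passed, beside 29.9% of all genes), and the median of −0.05 changed sign with the scaling. Arg1, arginase 1, which depletes arginine, had values of 14.0, 4.73 and 3.56 in neonatal cells and 0.0698, 0.0392 and 0.0509 in MDSC, with a log2 difference of 2.80 (SE 0.42, adjusted p = 0.0019). Nos2, the inducible nitric oxide synthase, lay the other way, at 0, 0.00456 and 0.0479 against 7.495, 10.7 and 8.18, with a log2 difference of −3.25 (SE 0.22, adjusted p = 6.2e-05). Arginase and nitric oxide synthase both use arginine. Arg1 reached the minimum value only through the neonatal libraries and Nos2 only through those of MDSC. Both thus had to differ, and their lack of overlap is a description only. Il10, an inhibitory cytokine, was at 7.80, 9.58 and 9.34 against 0.156, 0.0870 and 0.432, with a log2 difference of 3.02 (SE 0.23, adjusted p = 8.8e-05). Il10 too reached the minimum only through the neonatal libraries. Cd274, which encodes PD-L1, was at 8.26, 8.62 and 15.1 against 2.02, 1.44 and 2.49, with a log2 difference of 1.93 (SE 0.28, adjusted p = 0.0017). Lgals1, galectin 1, was at 100.1, 107 and 80.2 against 20.1, 27.7 and 14.0, with a log2 difference of 2.20 (SE 0.26, adjusted p = 6.2e-04). Lgals3, galectin 3, and Stat3 were lower by −1.04 and −0.81 on the log2 scale. The Lgals3 call ended in the fits of 12 (adjusted p = 0.11) and 21 libraries (0.057). Tgfb1, transforming growth factor beta 1, was at 46.9, 45.3 and 40.6 and 30.4, 33.5 and 19.002 and did not pass (adjusted p = 0.053). The number of lower members was 5 without neonatal library 2.

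Genes of tissue-resident macrophages were far higher in the neonatal cells. All 22 tested members of that list passed and were higher, with a median of 3.95. A total of 9 of them reached the minimum value only through the neonatal libraries, so that these could enter the test in no other way. Marco, a scavenger receptor, had values of 554, 578 and 959 in neonatal cells and 0.0536, 0.449 and 0.174 in MDSC, with a log2 difference of 9.12 (SE 0.25, adjusted p = 1.3e-06). Cd5l, a secreted protein of macrophages, was at 374, 405 and 578 against 2.86, 0.541 and 2.15, with a log2 difference of 7.39 (SE 0.35, adjusted p = 1.8e-05). Clec4f, a lectin known from the Kupffer cells of the liver, was at 219.7, 130.4 and 97.9 and was listed at 0 in each MDSC library. Vsig4, a complement receptor, was at 61.1, 55.5 and 83.8 against 0, 0 and 0.0394, and Timd4, a receptor for dying cells, at 33.4, 28.0 and 38.8 against 0.141, 0.0530 and 0.224. C1qa, a chain of complement C1q, was at 108, 70.6 and 80.2 against 9.60, 0.889 and 7.57, and C1qb, another chain, at 58.7, 48.3 and 46.5 against 1.45, 0.902 and 5.86. Vcam1, which macrophages use to hold erythroblasts in erythroblastic islands, was at 160.2, 127 and 495 against 33.2, 4.91 and 32.3. MDSC library 2 was the lowest of its group for C1qa, C1qb and Vcam1, and the Vcam1 call ended without the libraries numbered 3 (adjusted p = 0.058). The list took between 0.863% and 1.56% of the summed values in neonatal libraries and between 0.0433% and 0.0656% in MDSC libraries.

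Of 26 tested genes of monocytes and macrophages in general, 11 were higher and 3 lower (53.8% passed, beside 29.9% of all genes). Their median was 1.02. Csf1r, the receptor of the macrophage growth factor, had values of 223, 172 and 246 in neonatal cells and 12.6, 9.18 and 17.3 in MDSC, with a log2 difference of 3.96 (SE 0.25, adjusted p = 5.3e-05). Adgre1, which encodes the macrophage antigen F4/80, was at 110.3, 106 and 105 against 3.58, 3.33 and 5.56, with a log2 difference of 4.41 (SE 0.21, adjusted p = 1.3e-05). Fcgr1, a high-affinity antibody receptor, was at 17.6, 9.34 and 13.3 against 1.65, 0.917 and 1.97. No neonatal library overlapped an MDSC library for these genes. Ccr2, a chemokine receptor of inflammatory monocytes, was at 2.16, 0.727 and 1.82 and 8.81, 1.74 and 12.3 and did not pass. Fn1, fibronectin, did not pass either. The neonatal cells had been sorted for erythroid antigens, and macrophage genes were at these levels in each of their 3 libraries. The part of macrophages in the other differences was not tested. Of 14 tested myeloid transcription factors, 4 were higher and 1 was lower (35.7% passed, beside 29.9% of all genes). Irf8, a factor of monocytes and dendritic cells, was at 24.1, 34.9 and 56.8 against 7.04, 6.29 and 4.36, with a log2 difference of 2.46 (SE 0.32, adjusted p = 0.001). Spi1 (PU.1) and Cebpb did not pass.

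Most tested genes of hepatocytes reached the minimum value in the neonatal libraries and stayed below it in MDSC. Of 21 tested, 18 were higher and 0 lower, with a median of 2.44, and 18 of the 21 reached the minimum only through the neonatal libraries. Alb, serum albumin, had values of 22.8, 41.2 and 133 in neonatal cells and 0.0252, 0.113 and 0 in MDSC, with a log2 difference of 5.62 (SE 0.56, adjusted p = 4.1e-04). Fabp1, a fatty acid carrier of liver and gut, was at 3.71, 4.85 and 6.08 and was listed at 0 in each MDSC library, as was Ttr, transthyretin, which was at 2.37, 4.66 and 8.29 in neonatal cells. Neonatal library 3 had the highest value for Alb, Fabp1 and Ttr. With a blank left missing 9 members were higher. Hepatocyte genes took between 0.138% and 0.304% of the summed values in the neonatal CD45+ libraries and between 0.00846% and 0.0117% in MDSC. The CD45- erythroid cells of neonates held between 0.0585% and 0.435%. Their mean Alb was 156, against 0.0658 in CD45+ cells of tumor-bearing mice, where the sort differs as well as the status. In those tumor CD45+ libraries the list took between 0.0155% and 0.0846%, above every MDSC library. The part of liver RNA in the other differences was not tested.

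Of 11 tested fetal and imprinted growth genes, 7 were higher and 1 was lower, with a median of 1.33, and 5 of the 11 reached the minimum only through the neonatal libraries. Afp, alpha-fetoprotein, which is also a hepatocyte gene of the fetus, was at 5.88, 15.2 and 46.9 against 0.0249, 0.155 and 0.0449. Igf2bp3, a fetal RNA-binding protein, was at 17.1, 20.9 and 16.1 against 1.22, 0.437 and 0.0345, with a log2 difference of 3.67 (SE 0.31, adjusted p = 1.5e-04). Igf2, the fetal growth factor, was at 1.95, 2.70 and 8.80 against 0.0108, 0 and 0. Lin28a, an RNA-binding protein of early development, was the member that was lower, at 1.36, 2.00 and 2.33 against 12.3, 15.0 and 15.5, with a log2 difference of −2.41 (SE 0.23, adjusted p = 2.4e-04). Each MDSC library was above each neonatal library for this gene. Of 12 tested genes of stroma and endothelium, 11 were higher and 1 was lower, with a median of 1.71, and 9 of the 12 reached the minimum only through the neonatal libraries. Cdh5, the cadherin of endothelial junctions, was at 36.4, 35.8 and 37.2 against 0.0407, 0.0144 and 0.0187, with a log2 difference of 5.19 (SE 0.20, adjusted p = 4.6e-06). Stab2, a scavenger receptor of sinusoid endothelium, was at 15.4, 9.81 and 23.8 against 0.795, 0.0211 and 0.166. The fibroblast collagen genes Col1a1 and Col3a1 stayed below 1 in every one of the 6 libraries.

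Eosinophil, mast cell and basophil genes were also higher in the neonatal cells. Of 22 tested, 14 were higher and 0 lower, with a median of 2.71, and 7 of the 22 reached the minimum only through the neonatal libraries. Prg2, the major basic protein of eosinophils, had values of 633, 1261 and 1095 in neonatal cells and 194, 24.3 and 12.04 in MDSC, with a log2 difference of 4.58 (SE 0.98, adjusted p = 0.016). MDSC library 1 was the highest of its group for Prg2, and the call ended without neonatal library 2 (adjusted p = 0.054), neonatal library 3 (0.059) or MDSC library 2 (0.078). It also ended with the replicate number as a block (0.088) and without the libraries numbered 3 (0.11). Epx, eosinophil peroxidase, was at 56.1, 114 and 62.6 against 13.7, 2.31 and 0.539, with a log2 difference of 4.15 (SE 0.78, adjusted p = 0.0076). The mast cell protease gene Cma1 was at 20.4, 12.2 and 47.3 in neonatal cells, and Tpsb2, a tryptase, at 16.04, 8.44 and 42.6. Tpsb2 was listed at 0 in each MDSC library, and Cma1 reached 0.0542 in MDSC library 2 and was listed at 0 in the others. Mcpt8, a protease of basophils, was at 31.2, 45.9 and 30.7 against 6.81, 4.03 and 1.03. Ear2, an eosinophil ribonuclease, was at 2.17, 1.34 and 299.5 and 28.6, 9.10 and 0.797, with a single neonatal library far above the others, and did not pass. Of 13 tested megakaryocyte and platelet genes, 7 were higher and 1 was lower, with a median of 1.69, and 3 of the 13 reached the minimum only through the neonatal libraries. Pf4, platelet factor 4, was at 45.7, 90.8 and 15.9 against 1.53, 0.904 and 0.477, with a log2 difference of 4.44 (SE 0.57, adjusted p = 0.0013).

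Lymphocyte genes and MHC class II genes were higher in the neonatal cells as well. Of 15 tested B cell genes, 11 were higher and 1 was lower, with a median of 2.88, and 6 of the 15 reached the minimum only through the neonatal libraries. Cd79a, the Ig-alpha chain that signals for the B cell receptor, had values of 49.2, 34.1 and 98.9 in neonatal cells and 1.41, 1.66 and 2.38 in MDSC, with a log2 difference of 4.33 (SE 0.37, adjusted p = 1.7e-04). Igll1, the surrogate light chain of B cell precursors, was at 9.93, 4.90 and 4.13 against 0.188, 0.0267 and 0, with a log2 difference of 2.69 (SE 0.31, adjusted p = 5.6e-04). Ms4a1, which encodes CD20 of later B cells, was at 3.38, 1.37 and 67.2 and 0.468, 0.831 and 1.68. Only neonatal library 3 was high in Ms4a1, and it did not pass. Of 18 tested T and NK cell genes, 12 were higher and 0 lower, with a median of 1.45, and 7 of the 18 reached the minimum only through the neonatal libraries. Under quantile normalization 6 were higher. Gzma, granzyme A, led them at 55.0, 34.7 and 128 against 0.234, 0.131 and 0.298, with a log2 difference of 5.71 (SE 0.43, adjusted p = 1.0e-04). Cd3e stayed at or below 3.04 in these libraries and was not tested, and Nkg7 overlapped between the groups. All 12 tested dendritic cell genes were higher, with a median of 1.94, of which 4 reached the minimum only through the neonatal libraries.

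Of 10 tested MHC class II genes, 8 were higher and 0 lower, with a median of 1.72. Cd74, the invariant chain, had values of 149, 169 and 231 in neonatal cells and 18.1, 12.5 and 15.9 in MDSC, with a log2 difference of 3.47 (SE 0.23, adjusted p = 5.3e-05). H2-Aa, a class II chain, was at 64.1, 92.1 and 141 against 13.8, 10.2 and 12.8. All neonatal libraries were above all MDSC libraries for both. Of 15 tested MHC class I genes, 9 were higher and 0 lower, with a median of 0.94, and under median-ratio scaling 5 were higher and 1 was lower. H2-K1, a classical class I chain, was at 255, 217 and 238 against 77.9, 90.8 and 109.9, whereas H2-D1 was at 358, 325 and 343 and 248, 319.5 and 285 and did not pass. B cell genes took between 0.0701% and 0.195% of the summed values in neonatal libraries and between 0.0257% and 0.0337% in MDSC. Class II genes took between 0.138% and 0.230% and between 0.0168% and 0.0235%.

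**Figure D3:**
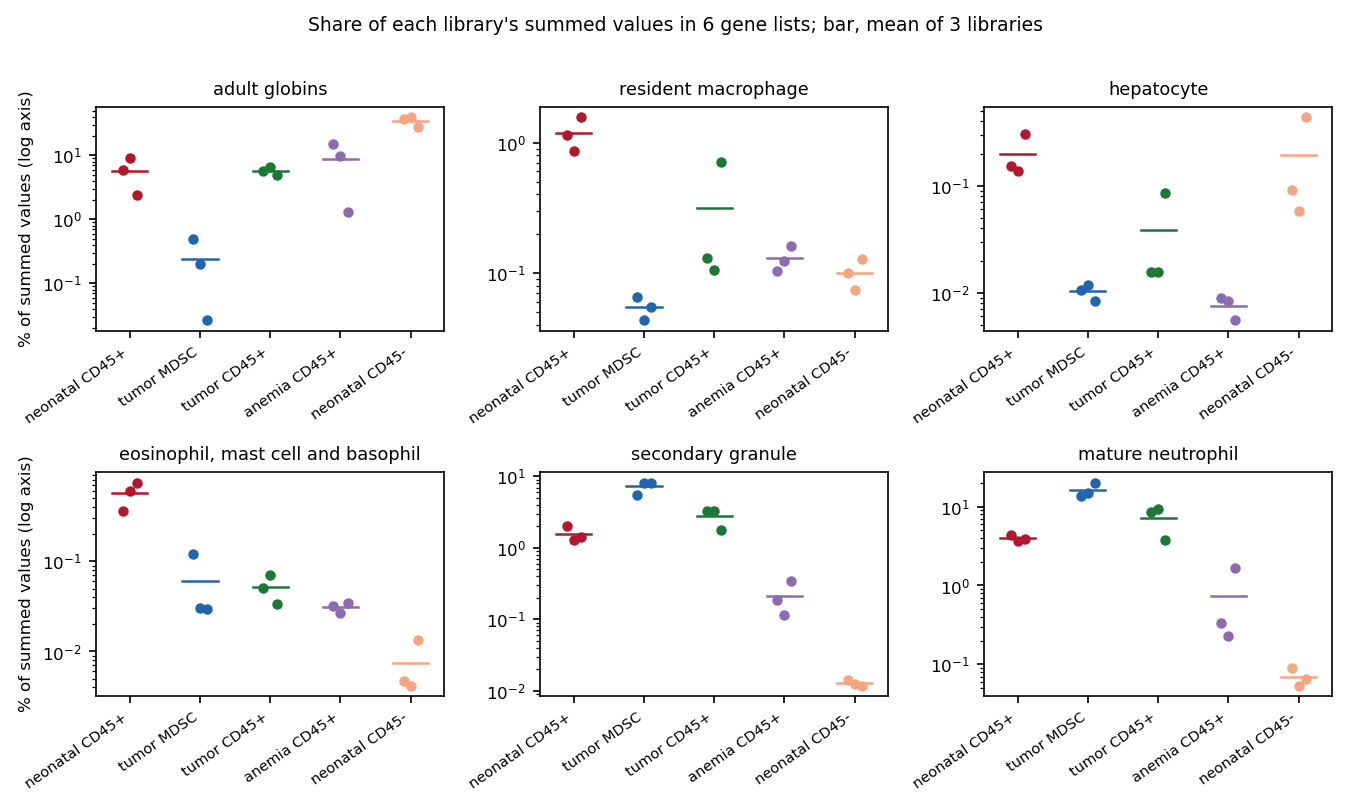
Share of each library's summed values, in percent on a log axis, that 6 gene lists took in 5 groups of 3 libraries, with a bar at the group mean. Neonatal CD45+ libraries hold between 0.863% and 1.56% in resident macrophage genes and MDSC libraries between 5.44% and 8.22% in secondary granule genes, and the neonatal CD45- libraries hold hepatocyte genes too.

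Among 24 tested inflammatory cytokines and chemokines, 9 were higher and 4 lower (54.2% passed, beside 29.9% of all genes), with a median of 0.46. Il1a, interleukin 1 alpha, had values of 19.004, 20.9 and 37.1 in neonatal cells and 0.470, 0.183 and 2.06 in MDSC, with a log2 difference of 3.87 (SE 0.40, adjusted p = 3.9e-04). Il1b, interleukin 1 beta, lay the other way, at 11.8, 17.1 and 28.1 against 43.8, 61.9 and 81.9, with a log2 difference of −1.71 (SE 0.34, adjusted p = 0.0067). The Il1b call ended in the fits of 12 (adjusted p = 0.2) and 21 libraries (0.1). These sister cytokines act on the same receptor, and neither overlapped between the groups. Il1r2, the decoy receptor that binds them, was lower in neonatal cells, at 38.0, 26.2 and 28.2 against 238, 298 and 331. Il6 was at 4.71, 6.63 and 21.9 against 0.931, 0.0987 and 0.449, and the T cell chemokine Ccl5 at 12.02, 12.6 and 22.5 against 1.62, 1.82 and 1.56. The number of lower members was 2 without MDSC library 2 or 3. Of 34 tested cytokine and chemokine receptors, 9 were higher and 12 lower (61.8% passed, beside 29.9% of all genes). The median of −0.18 changed sign with the scaling. The number higher was 5 without neonatal library 1 and 4 without MDSC library 2. Of 26 tested interferon-induced genes, 10 were higher and 0 lower (38.5% passed, beside 29.9% of all genes), with a median of 0.83. Irf7, the factor that amplifies interferon production, was at 43.6, 27.3 and 31.6 against 3.07, 4.39 and 10.6, with a log2 difference of 2.45 (SE 0.38, adjusted p = 0.0026). Ifitm3 was at 75.6, 63.6 and 0.572 and 4.66, 6.27 and 3.59, with neonatal library 3 far below the others, and did not pass. Ifitm1, not a member of that list, was lower, at 10.01, 9.49 and 8.09 against 262, 504 and 98.4, with a log2 difference of −4.54 (SE 0.52, adjusted p = 9.0e-04).

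Of 28 tested pattern and Fc receptors and their partners, which sense microbes and antibodies, 3 were higher and 6 lower. This share of 32.1% is near the 29.9% of all genes, and the median of −0.16 changed sign with the scaling. Clec4n (dectin-2), a lectin that binds fungal mannans, had values of 21.7, 12.7 and 41.5 in neonatal cells and 2.38, 2.31 and 3.37 in MDSC, with a log2 difference of 2.69 (SE 0.39, adjusted p = 0.0017). Clec4e (mincle), a related lectin for glycolipids, lay the other way, at 2.51, 2.10 and 6.53 against 20.1, 25.9 and 46.3, with a log2 difference of −2.79 (SE 0.41, adjusted p = 0.002). Fpr1, the formyl peptide receptor of neutrophils, was at 0.159, 0.161 and 2.14 against 5.20, 8.73 and 5.38. None of these overlapped between the groups. Without neonatal library 3 the number of lower members was 11. Of 25 tested genes of NF-kB signalling and the immediate early response, 8 were higher and 1 was lower (36.0% passed, beside 29.9% of all genes), with a median of 0.84. Relb, an NF-kB subunit, was at 8.84, 10.8 and 9.44 against 2.29, 3.25 and 2.71, with a log2 difference of 1.51 (SE 0.21, adjusted p = 0.0015), and Tnfaip3 (A20), which restrains the pathway, at 117, 97.1 and 179 against 15.2, 23.8 and 52.4. Junb, an immediate early factor, overlapped between the groups and did not pass. Without the libraries numbered 3 the number of higher members was 13.

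The genes that open leukotriene synthesis from arachidonic acid, Alox5ap and Alox5, were lower. Alox5ap was at 49.4, 51.7 and 37.1 in neonatal cells against 251, 324 and 639 in MDSC, and Alox5 at 24.5, 11.95 and 16.5 against 75.9, 91.2 and 76.9. Their log2 differences were −3.005 and −2.19 (SE 0.34 and 0.26, adjusted p = 5.5e-04 and 6.3e-04). Ptgs1, the constitutive cyclooxygenase, was at 83.9, 84.1 and 104 against 59.0, 44.5 and 35.9, with a log2 difference of 0.97 (SE 0.22, adjusted p = 0.012). Over the list of 14 tested leukotriene and prostaglandin genes 4 were higher and 4 lower (57.1% passed, beside 29.9% of all genes). The median of −0.01 changed sign with the scaling. Without neonatal library 2, MDSC library 1 or MDSC library 3 the number lower was 2, and without MDSC library 2 the number higher was 2. Of 24 tested glycolysis genes, 12 were lower and 2 higher (58.3% passed, beside 29.9% of all genes), with a median of −0.84. Pkm, pyruvate kinase, was at 268, 268 and 170.0 against 673, 661 and 514, with a log2 difference of −1.40 (SE 0.23, adjusted p = 0.003), and Slc2a3, a glucose transporter, at 11.9, 16.3 and 20.7 against 65.9, 83.0 and 133. Bpgm, which makes the 2,3-bisphosphoglycerate of red cells, was one of the members that were higher, at 29.7, 76.8 and 43.5 against 7.06, 5.63 and 3.07, with a log2 difference of 2.98 (SE 0.38, adjusted p = 0.0011). Of 21 tested antioxidant enzymes, 10 were higher and 3 lower (61.9% passed, beside 29.9% of all genes), with a median of 0.66. Without neonatal library 2, MDSC library 2 or MDSC library 3 the number higher was 6, and without MDSC library 1 the number lower was 1. Prdx2, a peroxiredoxin abundant in red cells, was at 104, 128 and 55.1 against 24.4, 18.4 and 11.1, and Cat, catalase, at 42.0, 34.9 and 40.8 against 12.4, 12.2 and 11.1.

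Few genes of proliferation were called. Of 31 tested DNA replication genes, 1 was higher and 2 were lower (9.68% passed, beside 29.9% of all genes), and their median of 0.24 changed sign with the scaling. Of 30 tested mitosis genes, 0 were higher and 3 lower, with a median of −0.21, and under median-ratio scaling 8 were lower. Mki67, a marker of cycling cells, had values of 211, 259 and 151 in neonatal cells and 248, 214 and 286 in MDSC, and Top2a, topoisomerase II alpha, had values of 155, 139 and 132 and 145, 145 and 205. Both overlapped between the groups and did not pass. Rrm2, a subunit of ribonucleotide reductase, was lower, at 63.6, 37.0 and 37.9 against 157, 66.5 and 140.4, with a log2 difference of −1.33 (SE 0.36, adjusted p = 0.025). Its call ended without neonatal library 2 (adjusted p = 0.082) or 3 (0.07) and without MDSC library 1 (0.077) or 3 (0.085). Of 12 tested genes of DNA methylation 2 were higher and 1 was lower, with a median of 0.14 that changed sign with the scaling. The share that passed was 25%, beside 29.9% of all genes. Dnmt3a, an enzyme that sets new methylation, was at 15.0, 9.75 and 15.4 in neonatal cells and 3.799, 3.47 and 3.31 in MDSC, with a log2 difference of 1.65 (SE 0.24, adjusted p = 0.0015), and Dnmt3b at 4.15, 4.79 and 5.58 and 1.47, 1.41 and 0.646, with a log2 difference of 1.44 (SE 0.25, adjusted p = 0.0037). Dnmt1, which copies methylation after replication, was at 48.0, 44.8 and 46.5 and 62.9, 54.7 and 51.8 and did not pass. Of 38 tested subunits of the respiratory chain, 1 was higher and 0 lower (2.63% passed), with a median of 0.19 that changed sign with the scaling. Of 48 cytosolic ribosomal protein genes, 14 were higher and 0 lower, with a median of 0.47, and this share of 29.2% is near that of all genes. With median-ratio scaling 0 were higher and 1 was lower, and leaving out a single library left between 0 and 6 higher.

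Beyond the lists, 12 genes on either side with the widest differences were named by the rule given with the methods. Several of the positive ones were macrophage, hepatocyte or T and NK cell genes described above. Fcna, ficolin A, a lectin of complement, was at 159, 129 and 133 in neonatal cells against 5.28, 0.399 and 3.42 in MDSC, and Lgmn, a lysosomal protease, at 247, 248 and 296 against 7.77, 3.31 and 7.56. Dmpk, a kinase known from muscle, was at 65.9, 54.6 and 55.2 against 0.230, 0.307 and 0.212, with a log2 difference of 5.57 (SE 0.20, adjusted p = 4.6e-06), and varied little within the groups. On the negative side Lipg, endothelial lipase, had values of 0.0162, 0.0892 and 0.220 in neonatal cells and 56.1, 87.3 and 115 in MDSC, with a log2 difference of −6.24 (SE 0.28, adjusted p = 1.2e-05). Dhrs9, a retinol dehydrogenase, was at 0.624, 0.530 and 0.936 against 35.1, 40.2 and 42.8, with a log2 difference of −4.58 (SE 0.21, adjusted p = 1.2e-05). Lipg and Dhrs9 reached the minimum value only through the MDSC libraries, and Dmpk only through the neonatal ones, so these had to differ. Ggt1, which breaks down glutathione, was at 0.510, 1.38 and 0.474 against 33.2, 68.2 and 24.9, and Slfn4, a schlafen gene of myeloid cells, at 15.6, 10.6 and 10.9 against 240.3, 288 and 337. S100a6, a calcium-binding protein, was at 62.5, 46.6 and 56.6 against 847, 1030.0 and 709, and Il1f9, a cytokine of the interleukin 1 family, at 1.16, 1.17 and 6.02 against 55.5, 52.5 and 73.1. Entpd3, Scrg1, Orm1, Glipr2 and Tarm1 completed the negative side, with log2 differences between −3.72 and −3.57. Outside the rule, and seen only afterwards, the replication-dependent histone gene Hist1h4n was listed at 0 in each neonatal library and had values of 506, 457 and 274 in MDSC.

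The libraries also differed in the sex chromosome genes they held. Eif2s3y, a Y-linked gene, had values of 14.2, 20.8 and 24.3 in the neonatal CD45+ libraries and was listed at 0 in each MDSC library. Ddx3y, Uty and Kdm5d, also Y-linked, were at 10.03, 14.6 and 12.9, at 6.33, 8.76 and 10.2 and at 3.74, 5.20 and 3.71 in neonatal cells. The only value of these genes in MDSC was 0.0036, for Kdm5d in library 2. The neonatal CD45- libraries held these genes as well, with a mean Eif2s3y of 15.3. Values of Y-linked genes thus moved with the groups, the labels used here do not give the sex of the mice, and the part of sex in the other differences cannot be told apart from status and sort. This list was added after the data were seen.

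CD45+ erythroid cells from tumor-bearing mice, also sorted as Ter119+CD71+, share the sort of the neonatal cells and the status of the MDSC, so they divide the comparison into a difference of status and a difference of sort. Both differences came from a fit of 12 libraries (neonatal, tumor and anemia CD45+ cells and MDSC). They share the tumor CD45+ libraries, and each shares a group with the main comparison, so the values are set side by side only. The difference of status also holds age and Y-linked genes. All 4 tested Y-linked genes were higher in neonatal than in tumor CD45+ cells, with a median of 3.48. Between tumor CD45+ cells and MDSC 0 of them were called, with a median of 0.0003. These 4 reached the minimum only through the neonatal libraries, and the part of age or sex in the difference of status was not tested. Of 11011 genes tested, 521 (4.73%) differed between neonatal and tumor CD45+ cells, 383 higher in neonatal cells (3.48%) and 138 lower (1.25%). Between tumor CD45+ cells and MDSC 693 (6.29%) differed, 622 higher in tumor CD45+ cells (5.65%) and 71 lower (0.645%). Without tumor CD45+ library 3 these counts were 1069 and 238. The first count was also 270 without neonatal library 1, 297 without neonatal library 2, 311 without tumor CD45+ library 1 and 221 without tumor CD45+ library 2. The second was 312, 170 and 99 without MDSC library 1, 2 and 3. With the replicate number as a block the second count was 1025, with 887 higher and 138 lower. The list counts below come from the fit without the block.

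**Figure D4:**
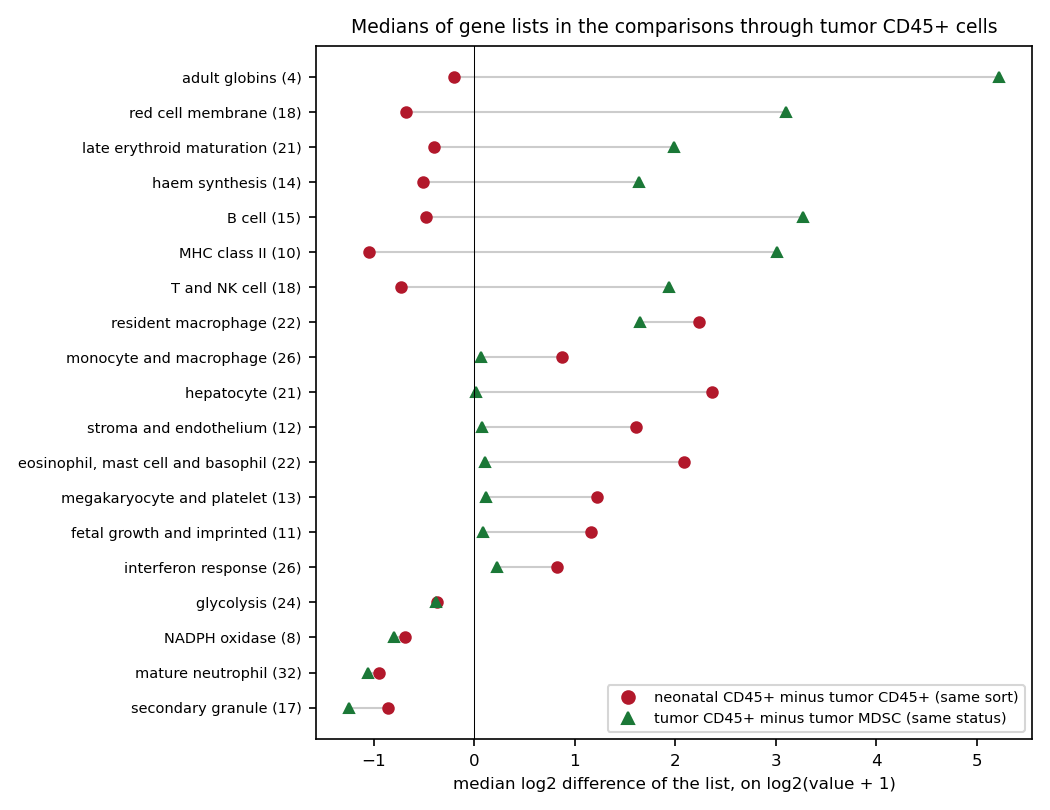
Median log2 difference of 19 gene lists for neonatal CD45+ minus tumor CD45+ cells (red circles) and for tumor CD45+ cells minus tumor MDSC (green triangles), with the number of tested members in brackets. Globin medians lie at −0.20 and 5.23, hepatocyte medians at 2.36 and 0.01, and secondary granule medians at −0.86 and −1.25.

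For the erythroid lists the larger median was that of the sort. The medians of the globins were −0.20 between neonatal and tumor CD45+ cells and 5.23 between tumor CD45+ cells and MDSC, and those of the red cell membrane genes were −0.68 and 3.10. Of the 18 membrane genes limma called 0 in the first difference (1 at an unadjusted p under 0.05) and 13 higher in the second. Without tumor CD45+ library 3 the second difference had 1 of the 18 membrane genes and 1 of the 4 globin genes called, with medians of 3.23 and 5.37. Alas2 had values of 189.6, 259 and 292 in the tumor CD45+ libraries, and its log2 differences were −0.56 (SE 0.76, adjusted p = 0.76) and 5.15 (SE 0.76, adjusted p = 0.0053). B cell and MHC class II genes also had the larger median in the second difference, with medians of −0.48 and 3.28 and of −1.05 and 3.01. Cd79a had values of 32.7, 44.6 and 172 in the tumor CD45+ libraries, and its log2 differences were −0.20 (SE 0.53, adjusted p = 0.89) and 4.53 (SE 0.53, adjusted p = 0.0016). Tumor CD45+ library 3 was the highest of its group, with B cell genes at 0.680% of the summed values against 0.108% and 0.146% in the others, and class II genes at 0.930% against 0.195% and 0.236%. Without it the B cell medians were −0.02 and 2.69 and the class II medians −0.48 and 2.38, with 10 B cell genes and 10 class II genes called higher in the second difference, and the first difference of Cd79a turned to 0.52 (adjusted p = 0.45).

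For other lists the larger median was that of the status. Hepatocyte genes had medians of 2.36 and 0.01, with 18 of 21 higher in neonatal than in tumor CD45+ cells and 0 called between tumor CD45+ cells and MDSC (2 at an unadjusted p under 0.05). Eosinophil, mast cell and basophil genes had medians of 2.08 and 0.10, with 14 of 22 higher in the first and 0 called in the second (1 at an unadjusted p under 0.05). Stroma and endothelium genes had medians of 1.60 and 0.08, and megakaryocyte genes 1.22 and 0.12. In the main comparison 18 of the 21 hepatocyte and 9 of the 12 stroma and endothelium genes reached the minimum only through the neonatal libraries. So did 7 of the 22 eosinophil, mast cell and basophil genes and 3 of the 13 megakaryocyte genes. Such members were below the minimum in MDSC and had to differ from it, so these medians and counts are a description only. Cdh5 had values of 0.0457, 0.137 and 0.382 in the tumor CD45+ libraries, and its log2 differences were 4.99 (SE 0.19, adjusted p = 3.9e-08) and 0.20 (SE 0.19, adjusted p = 0.53). Arg1, at 0.140, 0.0436 and 0.103 in the tumor CD45+ libraries, had log2 differences of 2.74 (SE 0.34, adjusted p = 7.9e-04) and 0.06 (SE 0.34, adjusted p = 0.94). Il10, at 0.793, 1.31 and 1.199, had differences of 2.24 (SE 0.34, adjusted p = 0.0031) and 0.78 (SE 0.34, adjusted p = 0.18). The list of both genes, that of immune suppression, had medians of 0.03 and −0.17. Its member Nos2 differed by −1.60 in the first with a minimum value of 5, and by −1.65 in the second in a fit of 6 libraries. Neither passed there (limma, adjusted p = 0.079 and 0.10).

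For a further group of lists both medians had the same sign. Resident macrophage genes had medians of 2.23 and 1.65, with 9 and 4 of 22 called higher. These genes took 0.708% of the summed values in tumor CD45+ library 3 and 0.130% and 0.105% in the others, and without library 3 the medians were 2.96 and 0.87, with 17 and 2 called higher. Within the list the members differed. Clec4f was listed at 0 in all tumor CD45+ and MDSC libraries, while Cd5l had values of 25.7, 19.2 and 55.4 in the tumor CD45+ libraries and log2 differences of 3.83 (SE 0.41, adjusted p = 2.5e-04) and 3.56 (SE 0.41, adjusted p = 0.0016). Secondary granule genes had medians of −0.86 and −1.25, with 2 and 3 of 17 called lower (4 and 0 without tumor CD45+ library 3, where 10 were lower in the second at an unadjusted p under 0.05), and mature neutrophil genes −0.95 and −1.06. Of the 32, limma called 2 higher and 1 lower in the first difference and 0 in the second (14 and 12 at an unadjusted p under 0.05 in either direction). S100a9 had values of 12033, 12469 and 4756 in the tumor CD45+ libraries and did not pass in either difference (adjusted p = 0.34 and 0.2). Lipg had values of 25.9, 48.4 and 6.96, with log2 differences of −4.31 (SE 0.53, adjusted p = 6.5e-04) and −1.93 (SE 0.53, adjusted p = 0.052).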

How the data were processed

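RNA was extracted with Trizol and made into libraries with a TruSeq kit, per the labels' protocols. Per the submitters' processing notes, Bowtie 0.12.2 and build mm8 were used for the alignment, and the quantifier and gene annotation are not given in the sources used here. The authors deposited 1 table of log2 expression values for 14273 genes in 21 libraries, on a scale the sources used here do not name, with 7.90% of the cells blank. As the depth is unknown, counting intervals are left out. Of 86209 unlogged values under 1, 99.997% were whole multiples of 1e-06 (tolerance 0.01 of a step), which shows rounding of decimals and gives no read count. A table carried through a spreadsheet holds 22 symbols turned into dates, which stay under those names in the tests.

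Values were unlogged, a blank was read as 0 and log2(value + 1) was tested with limma 3.58.1 in R 4.3.3 (trend and robust moderation, two-sided, Benjamini-Hochberg adjusted p under 0.05). Genes whose value was 1 or more in 3 or more of the fitted libraries entered. The test was tried on simulated data with independent normal values for each gene. That trial checks the working of the test and lends no support to the calls given here. The comparison of neonatal cells with MDSC used their 6 libraries, without a replicate block. Same-numbered libraries of neonatal cells and MDSC correlated at 0.046, 0.124 and 0.255 in their deviations from the group means. Those of neonatal and tumor CD45+ cells correlated at 0.096, 0.223 and 0.414. In neither case did every library correlate best with its own number, so they were not taken as pairs. Those of tumor CD45+ cells and MDSC correlated at 0.183, 0.208 and 0.332, which hints at pairs, but the labels give only the number. The fit of 12 libraries had no replicate block, so its p-values leave this hint out. With the block that difference had 1025 genes called instead of 693.

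The comparison, its gene lists and its tests were chosen with earlier results of these data known. The genes named were, first, the 12 with the largest difference in each direction that passed, did not overlap between groups and whose higher group averaged 10 or more, without clone or locus numbers, dates and replication-dependent histones. They were also the sort antigens and, of each list, the 6 members of smallest adjusted p, the 3 of highest mean, the 2 of highest mean among those that did not pass, and every member of lists of at most 8. Some genes that the rule names are not reported here. Alternatives were other pseudocounts (0.1 and 10), filters, scalings, moderation, library sets, the replicate block and blanks left missing. Figures were drawn with matplotlib 3.10.9.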

Additional observations from a re-analysis of the deposited data

Results flagged for a closer look

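The CD45- erythroid cells of neonates were not one of the groups tested against each other. They entered only the fit of all 21 libraries and the shares and levels given above. Genes of other cell types had values in them. Hepatocyte genes took a mean of 0.195% of their summed values, with a range of 0.0585% to 0.435%, against 0.00045% to 0.00521% in the CD45- libraries of tumor-bearing and anemic mice. Resident macrophage genes took a mean of 0.101% in the neonatal CD45- libraries, with a range of 0.0740% to 0.128%, against 0.0150% to 0.0553% in the others. The neonatal libraries lay above all the others for both lists.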

How the results depend on the processing

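In the comparison of neonatal cells with MDSC the total of 3058 called genes stayed within 1.5 times under every alternative except leaving out MDSC library 2. Leaving out 1 library gave 2016 to 3156 genes, 1408 to 2111 of them higher and 608 to 1045 lower. The higher count was 1320 with a minimum value of 5, 1398 with median-ratio scaling and 1340 with quantile normalization, and the lower count was 1507 with median-ratio scaling. Between neonatal and tumor CD45+ cells 521 genes were called, and the count was 966 with no filter, 253 with a minimum value of 5, 322 with blanks left missing, 1154 without the libraries numbered 3, 140 in a fit of 6 libraries and 221 to 1069 when 1 library was left out. Between tumor CD45+ cells and MDSC 693 were called, and the count was 1096 and 100 with pseudocounts of 0.1 and 10, 233 with quantile normalization, 1119 with scaling to the sum without haemoglobin genes, 1181 with blanks left missing, 111 without the libraries numbered 3, 238 in a fit of 6 libraries and 99 to 709 when 1 library was left out. For this difference median-ratio scaling gave 446 higher and 338 lower, pseudocount 10 gave 60 and 40, and quantile normalization 168 and 65. The causes were not tested.

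With the replicate block the 3 counts were 3126, 652 and 1025. The pairing of neonatal cells with MDSC or with tumor CD45+ cells rests on the shared number alone, and not every library correlated best with its own number.

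A minimum value of 5 removes low genes, and with it the higher members numbered 6 in the hepatocyte list, 2 among T and NK cell genes, 5 in stroma and endothelium, 7 in dendritic cells, 3 in the fetal list, 4 in the megakaryocyte list and 3 each among erythroid factors, erythropoietin signalling and suppressive genes. Early progenitor genes numbered 5 higher with that minimum and with median-ratio scaling and 4 with quantile normalization. Mature neutrophil genes numbered 0 higher in the fit of 12 libraries. Of 4888 values over 263 results (named genes, and counts in 1 direction), 4631 kept their direction and side of the threshold or stayed within 1.5 times, 164 lost a call, 53 gained one and 39 counts moved further. The sign of 1 turned: Ear2 differed by −2.67 (limma, adjusted p = 0.023) without the libraries numbered 3. Without the libraries numbered 3 the calls of Camp (adjusted p = 0.063), Ly6c1 (0.052) and Rrm2 (0.17) also ended, as did those of Rac2 (0.12) and Rrm2 (0.11) in the fit of 12 libraries. The unknown read depth limits what can be said of values near 0.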
